A study of Mus musculus with 6 samples.

Results

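The genes described here are 37 genes of cell proliferation, read in inguinal white adipose tissue (iWAT), a subcutaneous fat depot of the mouse. They were taken by symbol from the deposited tables, where each symbol had 1 row among the 55573 genes listed, and they fall into 14 genes of S phase and 23 genes of mitosis. The mutant mice carry the THRA K283Q/K288R mutation, a global knock-in that changes both lysines of the thyroid hormone receptor alpha that take up SUMO in that domain, and they are homozygous for it. The Wt mice are of the same C57BL/6NTac strain and carry the unchanged receptor. All were male, 3 months old, untreated and on regular chow. RNA of whole fat was sequenced from 3 mutant and 3 Wt mice, with 1 library per mouse. The knock-in was not restricted to fat, so every cell type in the tissue carries it. The series compares the genotypes for fat stores and for the proliferation of fat precursor cells. In the study, the RNA of whole fat was used to read genes that respond to thyroid hormone. It was also used for analyses of pathways and upstream regulators.

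A cell that enters the division cycle first switches on the genes of DNA replication. E2F factors, held back by the retinoblastoma protein until cyclin-dependent kinases release them, turn on the MCM helicase, its loading factors and the enzymes of nucleotide supply. The DREAM complex keeps genes of the cycle in check. Later, the MuvB complex and its partners turn on the mitotic genes. The products of the mitotic genes condense chromosomes, build the spindle, hold it in check and divide the cell. Adult fat holds few dividing cells, so these transcripts are scarce in it, and preadipocytes, endothelium, macrophages and lymphocytes are all known to contribute them.

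The libraries held 19607423 to 24228381 reads on genes. The deposited values are CPM with a further scaling for each mouse, and 3 reads on a gene were worth 0.126 to 0.157 (a floor that covers counting error only). The 6 adipocyte markers, which define the labelled tissue, summed to 11181 to 18964. Mutant mouse 1 stood apart from the other 5 mice. Its 8 B cell markers summed to 4.09, against 602 and 936 in mutant mice 2 and 3 and 483, 988 and 1055 in Wt mice 1, 2 and 3, and its 8 T cell markers summed to 6.76, against 158 to 633 elsewhere. All 16 of these markers were lowest in that mouse. The log2 fold changes of the proliferation genes are therefore given with and without mutant mouse 1. In whole tissue, fewer cells of a type and less RNA per cell cannot be told apart.

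Of the 37 genes, 1 differed between the genotypes and 36 did not pass the test, which 8.11% of all genes tested passed. *Ube2c*, which lies on the other strand of an abundant muscle gene, was higher in the mutant mice. None of the 14 S-phase genes and none of the other 22 mitotic genes passed (limma, Benjamini-Hochberg adjustment over the 16868 genes tested, FDR of 0.05), and of these 36 only *E2f1* had an unadjusted p under 0.05, against 24.2% of all genes tested. edgeR's quasi-likelihood test, the Wald test of DESeq2 and limma-voom on the reads called *Ube2c* only. Over all genes tested, limma called 1368 (8.11%), of which 928 (5.50%) were higher and 440 (2.61%) were lower in the mutant mice. With mutant mouse 1 left out it called 1005 genes (5.96%), and among the 37 again *Ube2c* alone.

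The direction of the differences was uneven. The log2 fold change was below 0 for 12 of the 14 S-phase genes and for 22 of the 23 mitotic genes, against 56.5% of all genes tested. The median was -0.42 over the S-phase genes and -0.57 over the mitotic genes, beside -0.05 over all genes tested. Without mutant mouse 1 the medians were -0.18 and -0.13, beside -0.04. The log2 fold change was then still below 0 for 12 of the 14 S-phase genes and 19 of the 23 mitotic genes. This held for 56.7% of all genes tested. Mutant mouse 1 was the lowest of the 6 mice for 11 of the 14 S-phase genes and 21 of the 23 mitotic genes, whereas this held for 5056 of the 16868 genes tested. Every mutant mouse lay below every Wt mouse for 4 of the 37 genes (*Pcna*, *E2f1*, *Cdc6* and *Aurkb*), or 10.8%, and for 15.7% of all genes tested.

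The genes of replication licensing come first among the S-phase genes. MCM2 to MCM7 form the ring helicase that opens the DNA, and CDC6 and CDT1 load it at origins. Values are given as the scaled CPM of mice 1, 2 and 3 in that order, Wt before mutant. *Mcm5* was 14.3, 19.3 and 25.4 in the Wt mice against 5.14, 15.4 and 17.5 in the mutant mice. *Mcm6* was 25.4, 29.6 and 40.5 in the Wt mice against 13.9, 26.8 and 31.7 in the mutant mice. *Cdt1* was 6.07, 12.1 and 14.5 in the Wt mice against 1.89, 7.18 and 8.52 in the mutant mice. In all 3 genes mutant mouse 1 was lowest, Wt mouse 3 was highest, and mutant mice 2 and 3 lay inside the range of the Wt mice. The log2 fold changes were -0.74 ± 0.46 (SE) for *Mcm5*, -0.44 ± 0.33 for *Mcm6* and -0.97 ± 0.56 for *Cdt1*, with adjusted p of 0.372, 0.433 and 0.344. Without mutant mouse 1 they were -0.21, -0.10 and -0.37.

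*Cdc6* was 2.39, 2.19 and 2.44 in the Wt mice against 0.838, 1.62 and 2.01 in the mutant mice, so the groups did not overlap, although the log2 fold change of -0.56 ± 0.25 did not pass (adjusted p = 0.236) and was -0.30 without mutant mouse 1. In mutant mouse 1 this gene rested on 16 reads. *Mcm2* was 16.5, 19.2 and 24.6 against 9.17, 14.8 and 18.9. *Mcm3* was 16.3, 25.1 and 32.5 against 13.3, 21.8 and 22.4, and *Mcm4* was 24.7, 33.6 and 36.2 against 17.2, 27.6 and 31.8. These genes overlapped between the genotypes, with log2 fold changes of -0.52, -0.34 and -0.32, and of -0.24, -0.10 and -0.07 without mutant mouse 1. *Mcm7* varied least among the helicase genes, at 22.2, 25.4 and 24.3 against 19.7, 22.3 and 22.9, and its log2 fold change was -0.15 ± 0.10, and -0.08 without mutant mouse 1. It shares 321 exonic bases with *Ap4m1* and 64 with *Cops6* on the other strand, both more abundant than *Mcm7* itself.

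The sequences in front of the genes were searched for the letters that E2F and the mitotic regulators are known to read. RefSeq's promoter windows, 250 bases before to 50 after each start on GRCm38.p6, covered 31 of the 37 genes in 33 windows. *Mcm4*, *Ccne2*, *Ccna2*, *Aurkb*, *Kif20a* and *Tpx2* have no window in that table. Both strands were searched for E2F letters (TTTCCCGC, TTTCGCGC, TTTGCCGC or TTTGGCGC, where overlapping matches counted once), for CCAAT, and for the cell cycle homology region CHR (TTTGAA or TTTAAA). E2F letters stood in 6 of the 13 windows of S-phase genes (46.2%), in 1 of the 20 windows of mitotic genes (5%) and in 2.26% of the 32851 windows of all genes. The windows of the helicase gene *Mcm2* and of *Pcna*, *Rrm2* and *E2f1* had no match. Those of *Cdc6*, *Mcm5* and *Mcm6* are shown as examples of helicase and loader genes with a match. They lie at chr11:98907901-98908200 (+ strand), chr8:75109259-75109558 (+ strand) and chr1:128359656-128359955 (- strand). The sequences run 5′ to 3′ on the gene's own strand, with the E2F letters in capitals.
Cdc6: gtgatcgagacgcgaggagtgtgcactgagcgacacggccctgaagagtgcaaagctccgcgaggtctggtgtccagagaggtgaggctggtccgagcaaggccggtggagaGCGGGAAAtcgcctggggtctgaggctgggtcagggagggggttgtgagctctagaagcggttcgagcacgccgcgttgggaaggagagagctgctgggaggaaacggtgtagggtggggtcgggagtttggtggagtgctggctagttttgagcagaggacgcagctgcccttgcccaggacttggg
Mcm5: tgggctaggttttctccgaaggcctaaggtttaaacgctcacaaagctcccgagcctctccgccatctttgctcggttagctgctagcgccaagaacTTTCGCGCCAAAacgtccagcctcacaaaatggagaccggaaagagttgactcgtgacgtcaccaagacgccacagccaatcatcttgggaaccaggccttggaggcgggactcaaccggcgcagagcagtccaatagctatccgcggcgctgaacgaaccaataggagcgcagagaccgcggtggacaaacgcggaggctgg
Mcm6: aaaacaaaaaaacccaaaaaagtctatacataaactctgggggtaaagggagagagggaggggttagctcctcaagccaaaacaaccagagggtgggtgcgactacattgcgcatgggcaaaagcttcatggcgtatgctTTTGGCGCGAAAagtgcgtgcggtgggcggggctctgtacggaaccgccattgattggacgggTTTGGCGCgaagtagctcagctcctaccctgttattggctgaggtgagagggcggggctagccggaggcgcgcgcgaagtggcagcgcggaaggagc
In *Mcm5* the matches on both strands overlap and begin at -153 and -149 from the start. *Mcm6* has an overlapping pair at -110 and -106 and a further match at -47, and the match of *Cdc6* begins at -138. Positions count from RefSeq's start. In the GENCODE annotation *Cdc6* starts further upstream, at 98907801, so its window lies inside the gene there. The same holds for the windows of *E2f1* and *Mcm7*. A match describes the letters only and is not evidence of binding.

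The next S-phase genes keep the replication fork supplied. PCNA is the sliding clamp of the DNA polymerases, RRM2 is the small subunit of ribonucleotide reductase, and TYMS makes thymidylate. *Pcna* was 22.4, 26.6 and 32.7 in the Wt mice against 14.99, 21.6 and 22.1 in the mutant mice. The groups did not overlap, by a margin of 22.1 against 22.4, and the log2 fold change was -0.47 ± 0.20 (adjusted p = 0.212), and -0.30 without mutant mouse 1. *Rrm2* was 5.15, 6.81 and 10.3 in the Wt mice against 2.04, 3.99 and 6.46 in the mutant mice, a log2 fold change of -0.83 ± 0.41 (adjusted p = 0.273), and of -0.45 without mutant mouse 1. Here mutant mouse 3 lay above Wt mouse 1. *Tyms* did not follow the others. It was 4.86, 4.57 and 5.17 in the Wt mice against 4.72, 4.76 and 4.02 in the mutant mice, so that mutant mouse 1 stood at 107% of the mean of mutant mice 2 and 3, where it stood at 39.1% for *Rrm2*.

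The regulators of S-phase entry were E2F1 itself and the E-type cyclins, which activate CDK2. *E2f1* was 8.84, 8.75 and 8.498 in the Wt mice, an SD of 0.178 (n = 3), and 5.82, 7.31 and 6.41 in the mutant mice. That SD is narrower than the counting error of the 211, 180 and 202 reads behind the Wt values. All 3 mutant mice lay below all 3 Wt mice, and the log2 fold change was -0.40 ± 0.13 with mutant mouse 1 and -0.32 ± 0.14 without it. It did not pass the test (unadjusted p = 0.0186, adjusted p = 0.119). *Ccne1* was 3.56, 4.47 and 5.38 in the Wt mice against 3.88, 4.98 and 4.59 in the mutant mice, a log2 fold change of 0.01 ± 0.18, and of 0.10 without mutant mouse 1. *Ccne2* was 2.64, 3.60 and 3.24 against 4.35, 3.55 and 4.07, with mutant mouse 1 highest and a log2 fold change of 0.30 ± 0.16, which was 0.24 without it. *Ccne2* shares 609 exonic bases with *Ints8* on the other strand, which had 9.27 times its mean value.

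**Figure D1:**
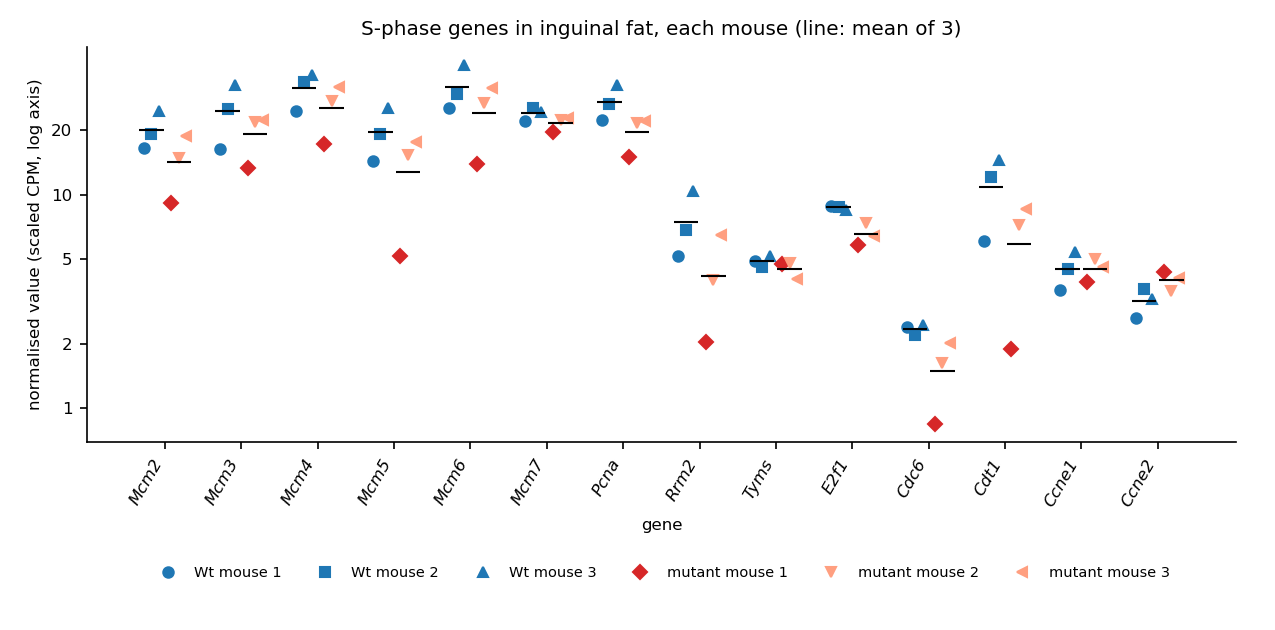
Scaled CPM (log axis) of the 14 S-phase genes in each mouse, with Wt mice in blue, mutant mouse 1 in red, mutant mice 2 and 3 in light red, and a line at the mean of each group. Mutant mouse 1 is the lowest point for 11 of the 14 genes, while *Tyms*, *Ccne1* and *Ccne2* do not show this.

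Ki-67 coats mitotic chromosomes and is the usual marker of cycling cells, and topoisomerase II alpha untangles sister DNA. Per kilobase of exons, their Wt means of 2.46 and 2.17 were the highest of the mitotic genes other than *Ube2c*. *Mki67* was 14.96, 23.6 and 35.8 in the Wt mice against 3.83, 15.4 and 21.4 in the mutant mice. *Top2a* was 12.02, 19.1 and 27.6 in the Wt mice against 3.30, 14.6 and 19.9 in the mutant mice. Mutant mouse 1 stood at 20.8% and 19.1% of the mean of mutant mice 2 and 3, and those mice lay inside the range of the Wt mice for both genes. The Wt mice themselves differed 2.39-fold for *Mki67*. The log2 fold changes of -1.05 ± 0.63 for *Mki67* and -0.85 ± 0.65 for *Top2a* did not pass (adjusted p = 0.357 and 0.449), and without mutant mouse 1 they were -0.35 ± 0.35 and -0.12 ± 0.33.

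Cyclins A2, B1 and B2 drive CDK1 into mitosis. *Ccnb2* had the most negative log2 fold change of the 37 genes, at -1.09 ± 0.46 (adjusted p = 0.211), and it was -0.60 ± 0.29 without mutant mouse 1. *Ccnb2* was 2.09, 3.55 and 4.08 in the Wt mice against 0.367, 2.24 and 1.59 in the mutant mice, and mutant mouse 2 lay above Wt mouse 1. In mutant mouse 1 the value stood for 7 reads. *Cdk1* was 2.89, 2.53 and 3.997 against 1.36, 2.11 and 3.65. *Ccna2* was 4.99, 6.66 and 9.13 against 2.36, 6.87 and 8.56. Its log2 fold change was -0.33 with mutant mouse 1 and 0.18 without it. *Ccnb1* rested on 6 to 18 reads in each mouse, at 0.293, 0.875 and 0.589 against 0.314, 0.628 and 0.702. Per kilobase of exons, the Wt mean of *Ccnb1* was 0.139 and that of *Ccnb2* was 2.12. Of the 50-base words of *Ccnb1* transcripts, 23.4% also occur in transcripts of other genes, *Ccnb1-ps* among them, so its reads may be split or lost and its value is uncertain.

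Among the mitotic kinases and checkpoint proteins, *Aurkb* alone had every mutant mouse below every Wt mouse. Aurora B corrects faulty attachments of chromosomes to the spindle. *Aurkb* was 3.56, 3.40 and 3.49 in the Wt mice against 0.786, 2.11 and 2.85 in the mutant mice. The Wt mice had an SD of 0.0787 (n = 3), narrower than the counting error of the 85, 70 and 83 reads behind them. All 3 mutant mice lay below the Wt mice. The log2 fold change was -0.83 ± 0.35 with mutant mouse 1 and -0.43 ± 0.19 without it, with adjusted p of 0.212 and 0.267. *Birc5*, survivin, which works in the same complex, was 2.60, 2.72 and 3.70 against 0.576, 1.84 and 2.90. *Aurka*, the kinase of the spindle poles, was 3.23, 4.38 and 4.21 against 2.36, 3.14 and 3.46. *Plk1*, which acts from mitotic entry to exit, was 1.97, 3.74 and 4.54 against 1.21, 1.97 and 3.14. The genotypes overlapped for these 3 genes, with log2 fold changes of -0.76, -0.35 and -0.59, and of -0.30, -0.21 and -0.32 without mutant mouse 1.

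BUB1 and BUBR1, the product of *Bub1b*, delay division until every chromosome is attached, and CDC20 then activates the anaphase-promoting complex. *Bub1b* was 4.44, 8.56 and 11.6 in the Wt mice against 1.26, 5.83 and 6.27 in the mutant mice, a log2 fold change of -0.95 ± 0.59 (adjusted p = 0.372), and of -0.32 ± 0.36 without mutant mouse 1. *Bub1* was 1.59, 2.04 and 2.06 against 0.472, 1.26 and 2.15, and mutant mouse 3 was the highest of the 6 mice. *Cdc20* was 2.72, 3.74 and 4.25 against 1.10, 2.83 and 3.56. The groups overlapped in all 3 genes.

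CENP-A is the histone that marks centromeres, CENP-E is a kinetochore motor and CENP-F a large kinetochore protein. *Cenpa* was 8.13, 13.2 and 15.7 in the Wt mice against 2.72, 8.35 and 10.7 in the mutant mice, a log2 fold change of -0.86 ± 0.49 (adjusted p = 0.338), and of -0.32 ± 0.28 without mutant mouse 1. *Cenpe* was 2.09, 4.18 and 4.84 against 1.83, 3.41 and 3.18, and *Cenpf* was 1.68, 3.36 and 4.04 against 0.734, 2.78 and 2.39. In all 3 genes, as for *Mki67*, mutant mouse 1 was lowest and Wt mouse 1 was next.

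The spindle genes include motors and bundling proteins. *Kif11*, which pushes the poles apart, was 4.36, 5.64 and 7.91 in the Wt mice against 1.15, 4.22 and 6.55 in the mutant mice. *Kif23*, a motor of the midzone and of cytokinesis, was 5.78, 8.02 and 10.6 against 2.41, 4.98 and 6.32, and its log2 fold change was -0.82 ± 0.36 (adjusted p = 0.231), and -0.46 without mutant mouse 1. *Kif20a*, which works beside it, was 4.78, 4.52 and 6.18 against 2.36, 6.69 and 4.87. Mutant mouse 2 had the highest *Kif20a* of the 6 mice, and the log2 fold change was -0.23 with mutant mouse 1 and 0.14 without it. *Kif20a* shares 1271 exonic bases with *Cdc23* on the other strand, which had 10.3 times its mean value. *Tpx2*, which activates Aurora A on the spindle, was 3.73, 5.40 and 7.57 against 2.31, 3.55 and 5.99. *Nusap1* and *Prc1* bind and bundle microtubules. *Nusap1* was 4.99, 5.25 and 6.65 against 2.096, 5.16 and 5.62, and *Prc1* was 3.18, 3.45 and 5.13 against 0.891, 3.32 and 4.02. For both genes mutant mice 2 and 3 lay inside the range of the Wt mice.

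**Figure D2:**
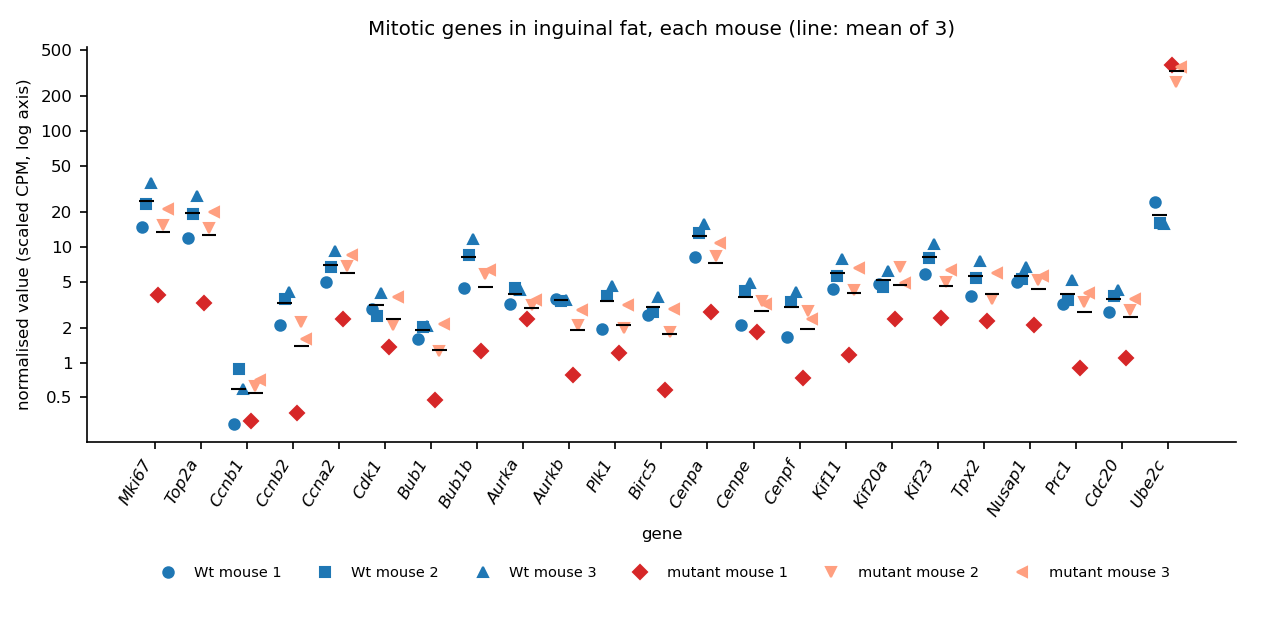
Scaled CPM (log axis) of the 23 mitotic genes in each mouse, with Wt mice in blue, mutant mouse 1 in red, mutant mice 2 and 3 in light red, and a line at the mean of each group. Mutant mouse 1 is the lowest point for 21 of the 23 genes, and *Ube2c* alone lies higher in all 3 mutant mice.

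The promoter windows of the mitotic genes shared letters that the choice of genes did not use. CCAAT stood in 18 of their 20 windows (90.0%) and in 37.4% of the windows of all genes, and CHR letters stood in 18 (90.0%) and in 27.6%. Both motifs were present in 17 of the 20 windows (85.0%), in 3 of the 13 windows of S-phase genes (23.1%) and in 10.7% of all windows. At least 2 CCAAT stood in 11 of the 20 (55.0%) and in 11.5% of all windows. These shares are descriptions of a list of genes chosen for their function. *Ccnb2* (chr9:70421505-70421804 on the - strand), *Mki67* (chr7:135716330-135716629 on the - strand) and *Top2a* (chr11:99024140-99024439 on the - strand) are shown, as a mitotic cyclin and the genes with the highest levels per kilobase after *Ube2c*, with CCAAT (or its complement ATTGG) and the CHR letters (or their complement) in capitals.
Ccnb2: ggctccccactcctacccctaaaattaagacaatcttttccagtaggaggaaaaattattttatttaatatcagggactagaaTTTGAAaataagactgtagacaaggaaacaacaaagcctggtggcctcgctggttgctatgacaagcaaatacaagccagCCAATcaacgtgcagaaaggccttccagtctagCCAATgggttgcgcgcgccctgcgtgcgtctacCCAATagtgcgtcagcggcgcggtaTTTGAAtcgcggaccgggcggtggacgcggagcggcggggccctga
Mki67: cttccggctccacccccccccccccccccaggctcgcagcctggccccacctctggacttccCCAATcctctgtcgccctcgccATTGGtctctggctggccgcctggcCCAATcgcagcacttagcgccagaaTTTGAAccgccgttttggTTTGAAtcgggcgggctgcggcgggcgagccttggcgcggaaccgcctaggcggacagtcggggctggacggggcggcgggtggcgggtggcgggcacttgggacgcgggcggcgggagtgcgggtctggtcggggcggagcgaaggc
Top2a: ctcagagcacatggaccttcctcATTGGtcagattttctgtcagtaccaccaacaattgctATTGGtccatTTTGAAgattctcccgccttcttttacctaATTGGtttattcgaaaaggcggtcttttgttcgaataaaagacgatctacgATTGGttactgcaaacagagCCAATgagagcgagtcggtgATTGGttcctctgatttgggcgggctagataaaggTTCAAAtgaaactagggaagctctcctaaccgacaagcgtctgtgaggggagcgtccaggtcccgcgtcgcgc
*Ccnb2* has CCAAT at -87, -54 and -21 and a CHR at 5, just past the start, beside a distant one at -167. *Mki67* has CCAAT letters at -188, -166 and -141, followed by CHR letters at -116 and -98. *Top2a* has 6 CCAAT, between -227 and -58, and CHR letters at -179 and -23. The promoter of *Ube2c* belongs to the same kind, with 5 CCAAT and 1 CHR in its window, and that of *Nusap1* has neither.

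*Ube2c* was the exception among the mitotic genes. It encodes a ubiquitin-conjugating enzyme that works with the anaphase-promoting complex. It was 24.6, 16.1 and 15.7 in the Wt mice against 372, 265 and 360 in the mutant mice. The groups lay far apart, with means of 18.8 ± 5.06 and 332 ± 59.1 (SD, n = 3), a ratio of 17.7. The log2 fold change was 4.12 ± 0.21 (adjusted p = 0.00122), and without mutant mouse 1 it was 4.03 (adjusted p = 0.00275). Mutant mouse 1, lowest for most of the other mitotic genes, was highest here, and Wt mouse 1, the lowest Wt mouse for *Mki67*, was the highest Wt mouse.

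*Ube2c* (chromosome 2, 164769898 to 164778822, + strand of GRCm38) shares 592 of its 2600 exonic bases with *Tnnc2* on the other strand. *Tnnc2* encodes troponin C of fast skeletal muscle and was 1053, 1018 and 501 in the Wt mice against 1443, 931 and 1407 in the mutant mice (log2 fold change 0.60, adjusted p = 0.327). *Ube2c* amounted to 2.34%, 1.58% and 3.13% of *Tnnc2* in the Wt mice and to 25.8%, 28.4% and 25.6% in the mutant mice. The shares did not overlap between the genotypes. Whether the counting used strand is not given in the sources used here, so reads of *Ube2c* and *Tnnc2* cannot be told apart where they overlap. The 6 skeletal muscle markers summed to 10700 to 23405 in the Wt mice and 15266 to 24465 in the mutant mice.

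Genes overlapped in this way were often higher in the mutant mice. Among the genes tested, 2214 shared exonic bases with a gene on the other strand at least as abundant, and 649 of them were called (29.3%), with 626 higher and 23 lower in the mutant mice. Of the 14650 annotated genes without such a partner, 718 were called (4.90%), with 302 higher and 416 lower. Such a partner overlaps 7 of the 37 proliferation genes: *Mcm7*, *Ccne2*, *Ccna2*, *Kif20a*, *Prc1*, *Cdc20* and *Ube2c*. *Ccne2* amounted to 8.41%, 9.83% and 9.67% of *Ints8* in the Wt mice and to 13.9%, 10.6% and 12.6% in the mutant mice. *Ccna2* was lowest against *Exosc9* in mutant mouse 1, at 8.40% there and 22.2% to 45.02% in the other 5 mice. None of the 30 proliferation genes without such a partner was called. Their median log2 fold change was -0.46 for the 12 S-phase genes and -0.66 for the 18 mitotic genes, and -0.23 and -0.20 without mutant mouse 1. With all 6 mice, the median over the 14650 genes without such a partner was -0.07. The part of overlapping reads in these results was not tested.

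**Figure D3:**
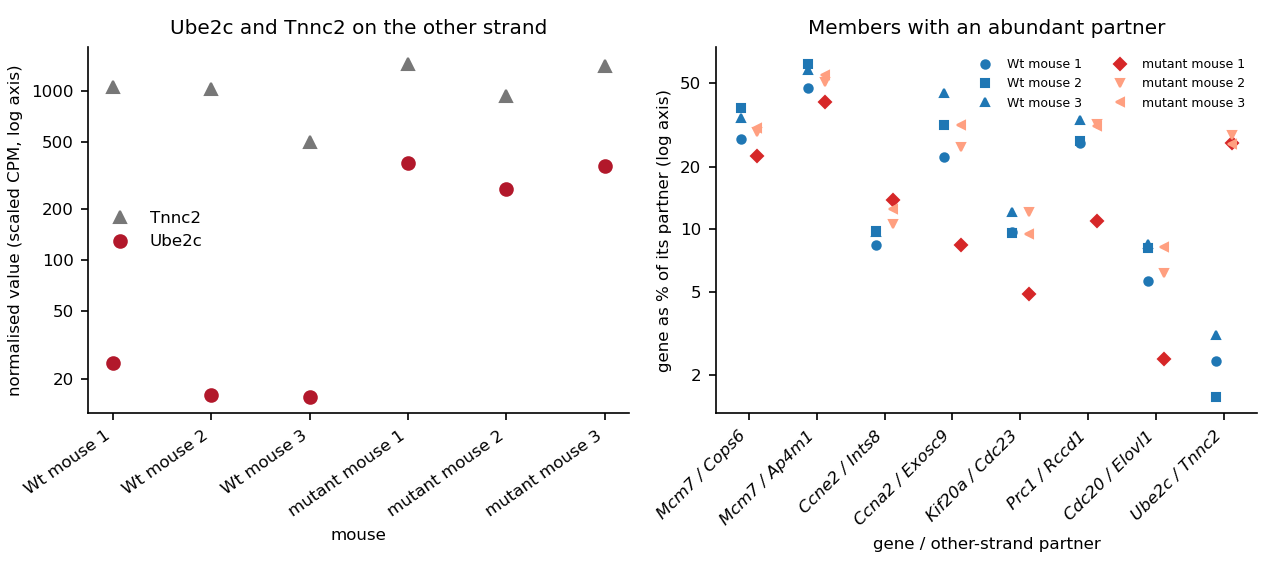
Left, scaled CPM (log axis) of *Ube2c* and of *Tnnc2* on the other strand in each mouse. Right, the 7 proliferation genes that an abundant gene overlaps from the other strand, each as a percentage of that gene (log axis) in every mouse. *Ube2c* stands at 1.58% to 3.13% of *Tnnc2* in the Wt mice and at 25.6% to 28.4% in the mutant mice, *Ccne2* also stands higher against *Ints8* in all 3 mutant mice, and the other pairs overlap.

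The level in each mouse shows how the S-phase and the mitotic genes depended on mutant mouse 1. As a percentage of the Wt mean of each gene, the median of the S-phase genes stood at 81.0, 99.1 and 120 in the Wt mice against 54.2, 84.1 and 90.0 in the mutant mice. For the mitotic genes it was 72.0, 97.7 and 127 in the Wt mice against 29.6, 71.2 and 96.5 in the mutant mice. Mutant mouse 3 was therefore between Wt mice 1 and 2 in both groups, and mutant mouse 2 was near Wt mouse 1. Relative to the mean of mutant mice 2 and 3, mutant mouse 1 had a median of 59.0% for the S-phase genes, with a range of 24.0% to 114%. For the mitotic genes the median was 31.7%, with a range of 19.1% to 119% that has *Ube2c* at its top. The summed S-phase genes were 175, 221 and 266 in the Wt mice against 117, 184 and 203 in the mutant mice. The summed mitotic genes other than *Ube2c* were 96.1, 138 and 184 in the Wt mice against 35.8, 103 and 130 in the mutant mice. Leaving out mutant mouse 1 turned the sign of the log2 fold change for *Ccna2*, *Ccnb1* and *Kif20a*, none of which passed the test either way.

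**Figure D4:**
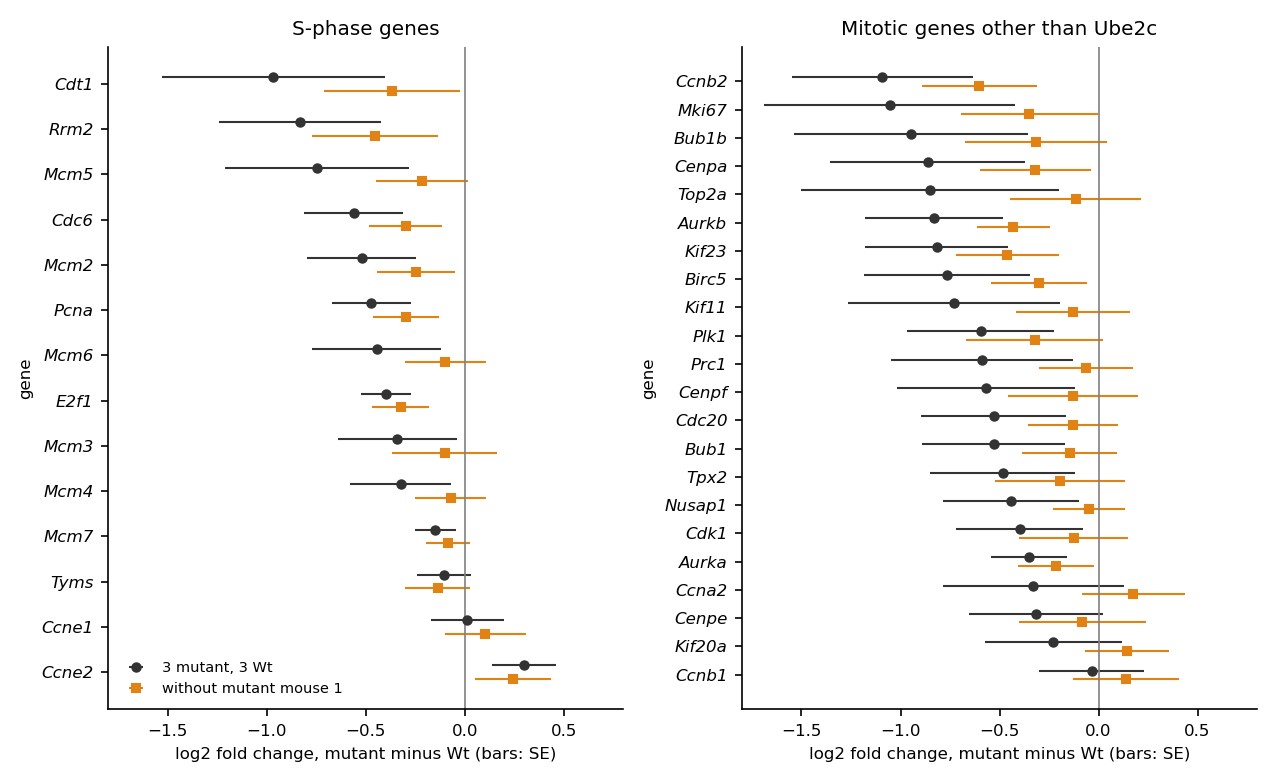
Log2 fold change (mutant minus Wt, on log2 of the value plus 0.5, bars are SE) of the S-phase genes and of the mitotic genes other than *Ube2c*, with all 6 mice (black) and without mutant mouse 1 (orange). Without that mouse most estimates move towards 0, with medians of -0.18 for the S-phase genes and -0.13 for the mitotic genes, *Ube2c* included in the latter.

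The proliferation genes ranked the mice much as the lymphocyte markers did. From low to high, the summed B cell markers ran from mutant mouse 1 through Wt mouse 1, mutant mouse 2, mutant mouse 3 and Wt mouse 2 to Wt mouse 3. The summed T cell markers and the summed S-phase genes gave the same order. Exactly this order was found for 9 of the 37 genes (24.3%), namely *Mcm3*, *Mcm4*, *Mcm5*, *Cdt1*, *Mki67*, *Bub1b*, *Plk1*, *Cenpa* and *Cdc20*, and for 5.54% of all genes tested. Wt mouse 1 was the lowest Wt mouse for 30 of the 37 genes (81.1%), against 38.8% of all genes tested. Wt mouse 3 was the highest of the 6 mice for 28 of the 37 (75.7%), against 27.8% of all genes tested. The order is also that of marker genes of cells outside the adipose lineage, and their part in the result was not tested.

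Markers of other cell types gave the following values. The 6 germinal centre markers summed to 35.4, 55.5 and 61.3 in the Wt mice against 12.7, 35.5 and 46.2 in the mutant mice. Of the lymph node stroma markers, *Ccl21a* and *Ccl19* had 2 rows each and were left out of the sum. The other 3 summed to 39.2, 91.2 and 114 in the Wt mice against 26.7, 105.5 and 137 in the mutant mice. Mutant mouse 1 was thus at 22.0% of the mean of mutant mice 2 and 3. *Glycam1*, a ligand on the vessels by which lymphocytes enter lymph nodes, had 1 read in mutant mouse 1, a value of 0.0524. It was 12.4 to 61.2 in the other mice. *Madcam1* also had 1 read in mutant mouse 1, against 29 to 46 reads in the other mice. *Cxcl13* did not share this. It was 26.6 in mutant mouse 1, nearly all of the sum there, 25.6 in Wt mouse 1 and 51.8 to 74.0 in the other mice. The part of lymph node tissue in the results was not tested. The 6 preadipocyte markers summed to 836, 806 and 753 in the Wt mice against 1080, 937 and 801 in the mutant mice, and none of the 6 was lowest in mutant mouse 1. *Pdgfra*, a marker of fat progenitors, was 117, 120 and 113 in the Wt mice against 147, 137 and 126 in the mutant mice (adjusted p = 0.162). *Dpp4* and *Pi16* also had every mutant mouse above every Wt mouse. The genotypes overlapped for *Ly6a*, *Dlk1* and *Cd34*, with log2 fold changes of -0.075, 0.33 and 0.07. The macrophage markers summed to 1055 to 1394 in every mouse, with *C1qa* alone past the FDR, and the endothelial markers to 727 to 882. Of the 6 mesothelial markers, 5 were higher in the mutant mice past the FDR (*Upk3b*, *Msln*, *Upk1b*, *Lrrn4* and the Wilms tumour gene *Wt1*), with sums over the list of 4.72 to 31.3 in the Wt mice and 33.8 to 70.4 in the mutant mice. The other lists (plasma cell, adipocyte, epithelium, skeletal muscle and erythroid) had no tested marker past the FDR in limma's test. The same held for those of B cells, T cells, germinal centre, preadipocytes and endothelium, and for the 3 lymph node stroma markers summed above.

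**Figure D5:**
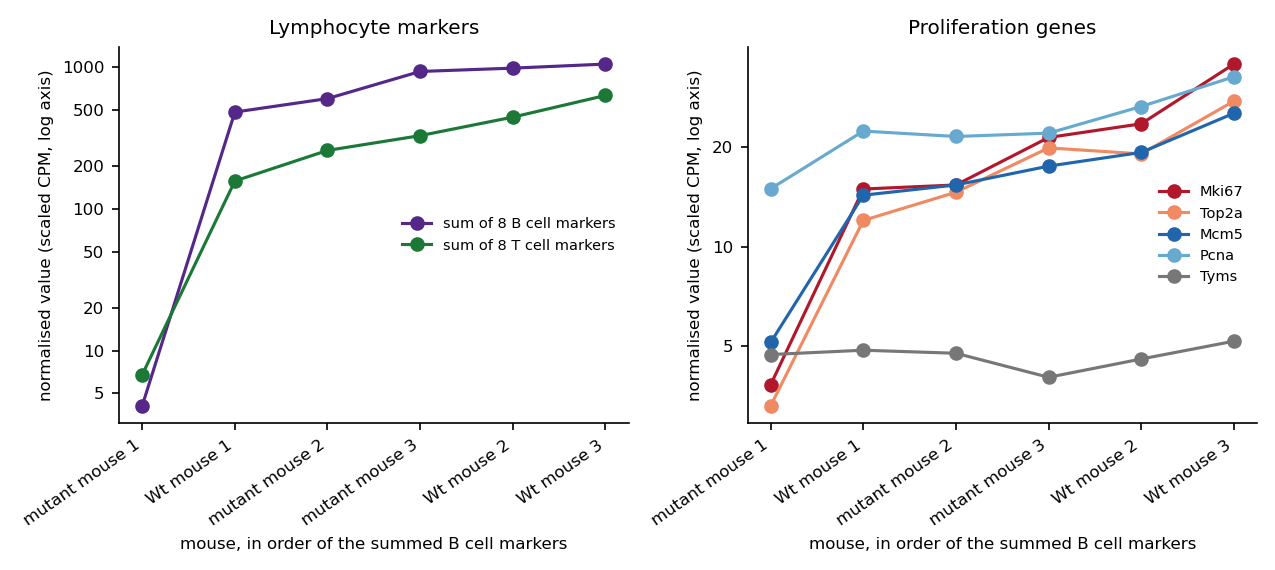
Left, the summed values of 8 B cell and 8 T cell markers in each mouse. Right, scaled CPM of *Mki67*, *Top2a*, *Mcm5*, *Pcna* and *Tyms* in the same mice, in order of the B cell sum (both axes are log). *Mki67* runs from 3.83 in mutant mouse 1 to 35.8 in Wt mouse 3, while *Tyms* stays between 4.02 and 5.17.

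Further genes of the same pathways were read from lists set by function. Of 50 other S-phase genes, 49 were abundant enough to test (*Orc1* was not), and 1 passed: *Chaf1a*, a subunit of the chromatin assembly factor that follows the fork. It was 8.09, 7.10 and 7.99 in the Wt mice against 14.04, 15.7 and 15.5 in the mutant mice, with no overlap and a log2 fold change of 0.92 ± 0.11 (adjusted p = 0.00574). *Chaf1a* shares 4648 exonic bases with *Ubxn6* on the other strand, and it amounted to 12.7% to 13.95% of *Ubxn6* in the Wt mice and 24.7% to 31.3% in the mutant mice. The median log2 fold change of the 49 genes was -0.25, and -0.07 without mutant mouse 1, and mutant mouse 1 was lowest for 36 of them.

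Of 60 other mitotic genes, 59 were tested (*Cdc25c* was not) and none passed limma's test, with 4 at an unadjusted p under 0.05 (24.2% of all genes tested were). edgeR's test and limma-voom called 0, and the Wald test of DESeq2 called *Cdc25b*, lower in the mutant mice. The log2 fold change was below 0 for 55 of the 59, with a median of -0.46, and of -0.16 without mutant mouse 1. *Cdc25b*, the phosphatase that activates CDK1, had the smallest p. It was 28.4, 31.2 and 37.1 in the Wt mice against 15.8, 18.3 and 23.9 in the mutant mice, so that all 3 mutant mice lay below the Wt mice, and its log2 fold change was -0.74 ± 0.18 (adjusted p = 0.0553) and -0.60 without mutant mouse 1 (adjusted p = 0.0951). Among the fits that left out 1 mouse, it passed only without mutant mouse 3. *Cks2*, a small partner of CDK1, was 1.17, 1.31 and 1.89 against 0.419, 0.359 and 0.983, and *Cenpi*, a centromere protein, was 1.17, 1.51 and 1.72 against 0.472, 0.763 and 1.17. Their log2 fold changes of -0.88 and -0.62 did not pass (adjusted p = 0.105 and 0.181), and were -0.78 and -0.43 without mutant mouse 1. Every mutant mouse lay below every Wt mouse for 6 of the 59 genes, *Cdc25b*, *Cks2* and *Cenpi* among them, and for 15.7% of all genes tested.

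The last list held genes of the complexes that keep these genes in check. Of 16 genes of the DREAM and retinoblastoma complexes and further E2F factors, none passed with limma, edgeR, DESeq2 or limma-voom, with 3 at an unadjusted p under 0.05 in limma (against 24.2% of all genes tested), and the median log2 fold change was -0.02. The median of mutant mouse 1 was 102% of the mean of mutant mice 2 and 3, and that mouse was the lowest of the 6 for 6 of the 16 genes. *E2f4*, the repressive E2F of DREAM, was 45.1, 49.7 and 58.2 in the Wt mice against 30.3, 38.5 and 40.1 in the mutant mice, a log2 fold change of -0.49 ± 0.14 (adjusted p = 0.0988), and of -0.37 without mutant mouse 1. *Lin37*, a MuvB subunit, was 12.1, 11.0 and 13.1 against 7.91, 9.33 and 10.2, and *E2f6*, a repressive E2F outside DREAM, was 41.0, 36.1 and 31.6 against 52.5, 40.4 and 47.8. Their adjusted p were 0.148 and 0.166.

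The levels themselves were low. Per kilobase of exons, the Wt mean ran from 0.447 for *Cdc6* to 11.4 for *Pcna* among the S-phase genes. Among the mitotic genes it ran from 0.139 for *Ccnb1* through 2.46 for *Mki67* to 7.23 for *Ube2c*. Near-identical copies touched several genes: of the 50-base words in their transcripts, 19.1% for *Pcna*, 18.1% for *Mcm7* and 10.4% for *Cdc20* occur in transcripts of other genes as well, and *Pcna-ps2* holds those of *Pcna*. The values of these genes and of *Ccnb1* depend on how such reads were assigned.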

How the data were processed

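Inguinal fat RNA of 3 mutant and 3 Wt mice, extracted with the RNeasy Plus kit, was sequenced by the submitters' core facility. The submitters' processing notes name mm10, Bowtie2 2.1.0, RSEM 1.2.15 and edgeR. The use of strand is not given in the sources used here. The deposited values are a normalized signal, CPM with a factor per mouse (sums of 901654 to 1039031), in which 100.0% of values above 0 were whole multiples (within 0.01 read) of the value of 1 read, so reads were recovered by division. Genes kept by filterByExpr (edgeR 4.0.16) were tested with limma 3.58.1 (R 4.3.3, mean-variance trend) on log2(value + 0.5), which understates changes of low genes, with Benjamini-Hochberg adjustment over all 16868. The design had foreseen this for normalized values. The test was checked on simulated data. DESeq2 1.42.0, edgeR's quasi-likelihood test and limma-voom on the reads, other scalings, filters and pseudocounts, a replicate block and the omission of single mice were alternatives. Overlaps, lengths and 50-base words came from GENCODE M21 on GRCm38, promoters from RefSeq. The genes named are all 37, the other listed genes past the FDR or, failing that, the 3 with the smallest p per list, overlapping genes, and markers that a statement rests on. Members and lists were chosen with earlier results of these data known. Python 3.11.15 and pandas 2.3.3 were used.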

Additional observations from a re-analysis of the deposited data

How the results depend on the processing

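Over the alternatives, 653 of 663 results for single genes kept their side of the FDR, and the other 10 all came from the replicate block. Mice that share a number are different animals, and the methods name no pairing, so the design had set a fit without pairs. Their deviations from the group means correlated at 0.69, 0.06 and 0.56. Wt mice 1 and 3 came closest to the mutant mouse of their number, Wt mouse 3 narrowly (0.54 with mutant mouse 2). Wt mouse 2 was closer to mutant mouse 3 (0.33). With the replicate block 4 S-phase genes (*Mcm2*, *Pcna*, *Rrm2* and *Cdt1*) and 7 mitotic genes (*Ube2c* and, lower, *Mki67*, *Ccnb2*, *Bub1b*, *Plk1*, *Cenpa* and *Kif23*) passed, with 10 other S-phase genes, 7 other mitotic genes, *E2f4* of the DREAM and retinoblastoma list (adjusted p = 0.0122) and 4063 of all genes. Of all genes, 598 passed with at least 10 reads in every mouse, 2118 with the Wald test of DESeq2, 866 with edgeR's quasi-likelihood test without mutant mouse 1 (chosen after seeing the data), and 554 to 1005 with 1 mouse left out (840, 554 and 581 without Wt mouse 1, 2 and 3, and 1005, 587 and 776 without mutant mouse 1, 2 and 3). Scaling by library size only gave 1019 higher and 265 lower, against 928 and 440. *Ube2c* passed in every alternative, and the sign turned only for *Ccne1*, *Ccnb1*, *Ccna2* and *Kif20a*, none of which passed. Leaving out 1 mouse gave 0 S-phase genes, 1 mitotic gene, 1 other S-phase gene and 0 to 1 other mitotic genes, with medians of -0.57 to -0.18 (S-phase) and -0.87 to -0.13 (mitotic), the least negative without mutant mouse 1. The Wald test of DESeq2 called 1 other mitotic gene, *Cdc25b*, which also passed with mutant mouse 3 left out. The causes were not tested. With 3 mice a group, and 6 to 16 reads behind several values of mutant mouse 1, small changes could not be detected. Log2 fold changes as large as those of *Ccnb2* (-1.09 ± 0.46) and *Mki67* (-1.05 ± 0.63) did not pass either.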
